A study of Mus musculus with 6 samples.

Results

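The signal-regulatory protein (SIRP) genes Sirpa, Sirpb1a, Sirpb1b and Sirpb1c were examined in CD11b+ bone marrow cells of the mouse, as 4 of the 32285 genes in the count matrices. The genes were taken by symbol. The family was chosen by a measured value, the lower level of Sirpb1c in mandible than in femur in cluster 2, so the values of Sirpb1c between sites are given as a description with no test, and no site value of the family is offered as support for that choice. The samples were 3 femur and 3 mandible libraries from C57Bl/6 mice of 2 months, with no treatment or engineered allele given. Marrow was flushed from the long bones, or from mandibles after the molars were extracted, with the tooth sockets flushed as well. All 6 samples then went through magnetic selection for CD11b, the integrin that marks myeloid cells. The labels name femurs and tibiae for the first group, while the methods name femurs alone. Femur replicate 1 came from a female mouse and the other 5 libraries from males, so sex and site are not balanced. Whether each library came from its own mouse is not stated in the sources used here, so p-values measure the spread between these libraries, which may be technical.

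SIRP proteins are paired receptors of myeloid cells, in which close relatives carry opposite signals. SIRPα, the product of Sirpa, binds CD47 on neighbouring cells and, through inhibitory motifs in its tail, recruits the phosphatases SHP-1 and SHP-2 (Ptpn6 and Ptpn11), which restrains phagocytosis. The SIRPβ1 proteins have a short tail without such motifs and signal through the adaptor DAP12 (Tyrobp) and the kinase SYK. In bone marrow, SIRP genes are known for their use by granulocytes, monocytes and macrophages, and the CD47 and SIRPα pair also takes part in the fusion of macrophages and osteoclast precursors.

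On mm10 (GRCm38, GENCODE vM21), Sirpa lies at chr2:129592835-129632228 on the plus strand. The Sirpb1 genes lie next to each other on the minus strand of another chromosome, with Sirpb1a at chr3:15371653-15426520, Sirpb1b at chr3:15495751-15575065 and Sirpb1c at chr3:15795145-15848528. They are flanked by a pair of SIRP-like gene models, Gm9733 at chr3:15296551-15332302 and Gm5150 at chr3:15946870-16006437, also on the minus strand. All 6 are annotated as protein-coding, and their identifiers in the files match the annotation. The 3 Sirpb1 coding sequences have 1191 bases each and are nearly copies of each other. Identity was 97.5% between Sirpb1a and Sirpb1b, 97.4% between Sirpb1a and Sirpb1c and 98.3% between Sirpb1b and Sirpb1c. Sirpa was 70.4% to 71.5% identical to them over the aligned coding bases. Gm5150 was 79.1% to 79.8% identical to them, and Gm9733 75.3% to 75.8%.

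The likeness of the Sirpb1 genes extends to their promoters, which are printed because these genes were measured side by side in every cluster below and because their sequences show how little separates them. Each sequence runs 5′ to 3′ on the minus strand of GRCm38.p6, with 300 bases that run up to and a little past the RefSeq start, and covers chr3:15426378-15426677 for Sirpb1a, chr3:15575016-15575315 for Sirpb1b, chr3:15848438-15848737 for Sirpb1c and chr3:16006283-16006582 for the neighbour Gm5150. By GENCODE, the gene starts at chr3:15426520 for Sirpb1a and at chr3:16006437 for Gm5150, so these windows reach further into the gene. Part of the likeness given below thus lies inside the genes. Capitals mark ACTTCC, the reverse complement of GGAAGT, a core to which ETS factors such as PU.1 can bind.
Sirpb1a: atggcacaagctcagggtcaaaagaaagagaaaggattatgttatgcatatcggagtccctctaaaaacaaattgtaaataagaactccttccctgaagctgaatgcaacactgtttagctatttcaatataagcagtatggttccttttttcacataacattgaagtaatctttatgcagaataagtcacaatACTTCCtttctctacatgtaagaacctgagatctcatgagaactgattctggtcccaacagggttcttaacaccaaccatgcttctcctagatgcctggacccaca
Sirpb1b: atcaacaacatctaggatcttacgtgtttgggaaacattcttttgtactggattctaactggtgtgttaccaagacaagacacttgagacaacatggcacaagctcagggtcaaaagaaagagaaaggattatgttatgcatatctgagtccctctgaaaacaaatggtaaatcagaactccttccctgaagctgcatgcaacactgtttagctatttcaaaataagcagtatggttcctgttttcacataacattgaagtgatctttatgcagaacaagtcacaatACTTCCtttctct
Sirpb1c: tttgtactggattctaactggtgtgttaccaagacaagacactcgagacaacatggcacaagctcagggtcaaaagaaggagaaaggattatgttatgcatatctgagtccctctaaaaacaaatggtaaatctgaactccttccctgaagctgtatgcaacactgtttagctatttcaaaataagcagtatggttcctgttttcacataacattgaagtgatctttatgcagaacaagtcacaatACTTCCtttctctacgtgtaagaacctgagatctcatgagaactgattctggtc
Gm5150: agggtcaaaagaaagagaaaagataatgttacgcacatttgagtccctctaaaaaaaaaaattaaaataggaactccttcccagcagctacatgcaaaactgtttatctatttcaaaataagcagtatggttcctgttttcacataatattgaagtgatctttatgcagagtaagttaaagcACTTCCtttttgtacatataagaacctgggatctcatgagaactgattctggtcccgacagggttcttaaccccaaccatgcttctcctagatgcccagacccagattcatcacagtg
Once the shift between annotated starts was aligned, the Sirpb1b and Sirpb1c promoters were 98.1% identical over 259 bases. Sirpb1a was 95.7% identical to Sirpb1b over 207 bases and 95.6% identical to Sirpb1c over 248 bases, and Gm5150 was 86.6% to 87.8% identical to the 3 genes. Each of the 4 windows holds the marked hexamer once. It is no rare word, since 24.1% of the 27025 RefSeq promoters of this length hold GGAAGT or ACTTCC. The words TTGCNNAA and TATAAA, also searched on both strands, are in none of the 4 windows, and are in 10.8% and 14.2% of all promoters. A match of letters is no evidence of a bound factor.

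Such likeness bears on the counts themselves. The libraries count molecules near the 3′ end of a transcript by unique molecular identifiers (UMIs). Among windows of 91 bases in the last 500 bases of the annotated transcripts, 55.8% of those of Sirpb1b, 40.8% of those of Sirpb1a and 37.9% of those of Sirpb1c also occur in another gene of the group. Sirpb1b and Sirpb1c share the most, with 46.1% of the Sirpb1b windows found in Sirpb1c. Reads from such windows cannot be placed, so the counts of the Sirpb1 genes are uncertain relative to each other. None of the windows of Sirpa, Gm5150 or Gm9733 was shared.

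The metadata table deposited by the authors keeps 69776 cells in 9 clusters, numbered 0 to 8. Total UMIs per library ran from 82962160 to 244946998, and the median per cell from 6924 to 9158. Pairs of libraries shared 15 to 70 cell barcodes, at most 0.651% of the smaller library. By the deposited reference labels, 95.2% or more of the cells in clusters 0, 1, 2, 3, 4 and 7 were neutrophils, while cluster 5 held 50.8% monocytes, 34.4% neutrophils and 6.55% macrophages, and cluster 6 held 85.03% B cells. The paper describes clusters 1, 2 and 3 otherwise, by genes of polymorphonuclear and monocytic suppressor cells of myeloid origin. Neutrophils are named here by the deposited labels. Of cluster 8, 87.6% of cells were labelled neutrophils, but it is small, with 11 to 160 cells per library, and its erythroid marker sum reached 27532 CPM or more in every library. Markers of neutrophils were detected in full in all 9 clusters, so their detection does not set the clusters with that label apart.

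Each of the 4 genes had its highest mean level in cluster 1, of neutrophils, or cluster 5, where monocytes were the largest label, and its lowest in cluster 4 or in cluster 6, rich in B cells. Levels are given in CPM, UMIs of the gene per 1000000 UMIs summed over the cells of a library in a cluster. Since clusters were built from expression, their order is a description. Sirpa was the most even of the 4 genes. Its mean over the 6 libraries was 417 ± 99.7 CPM (SD, n = 6) in cluster 5, 412 ± 84.9 in cluster 1, 335 ± 72.3 in cluster 2, 305 ± 92.4 in cluster 7, 253 ± 53.6 in cluster 3, 169 ± 26.3 in cluster 0, 122 ± 64.1 in cluster 8, 111 ± 13.1 in cluster 4 and 57.9 ± 22.0 in cluster 6. Each neighbour in this order overlapped the next in its library values.

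Sirpb1b, which encodes one of the SIRPβ1 copies, had its highest level in cluster 1, with 511 ± 135 CPM (SD, n = 6). It followed with 340 ± 96.2 in cluster 2, 242 ± 98.6 in cluster 7, 138 ± 38.2 in cluster 5, 120.5 ± 56.1 in cluster 3, 61.5 ± 41.6 in cluster 8, 39.5 ± 11.6 in cluster 0, 37.4 ± 11.96 in cluster 6 and 16.2 ± 6.25 in cluster 4. Sirpb1c was highest in clusters 1 and 5, with 110.0 ± 43.3 and 95.5 ± 29.2 CPM, and then came clusters 7 and 2 with 58.8 ± 37.8 and 57.9 ± 29.6. Below them it dropped to 10.6 ± 6.74 CPM in cluster 3, 9.15 ± 13.1 in cluster 8, 7.99 ± 4.21 in cluster 0, 7.19 ± 5.16 in cluster 6 and 3.6 ± 1.65 in cluster 4. The gap from cluster 2 to cluster 3 was the only step between neighbours, in any of the 4 orders, at which no library of the lower cluster reached the higher one. Sirpb1a was the only one of the Sirpb1 genes with its highest mean in cluster 5, with 45.8 ± 19.1 CPM against 25.2 ± 11.4 in cluster 1, 15.0 ± 12.1 in cluster 7 and 13.5 ± 5.77 in cluster 2. In the remaining 5 clusters its mean was 1.03 to 2.57 CPM, which is 5 to 538 UMIs in all.

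**Figure D1:**
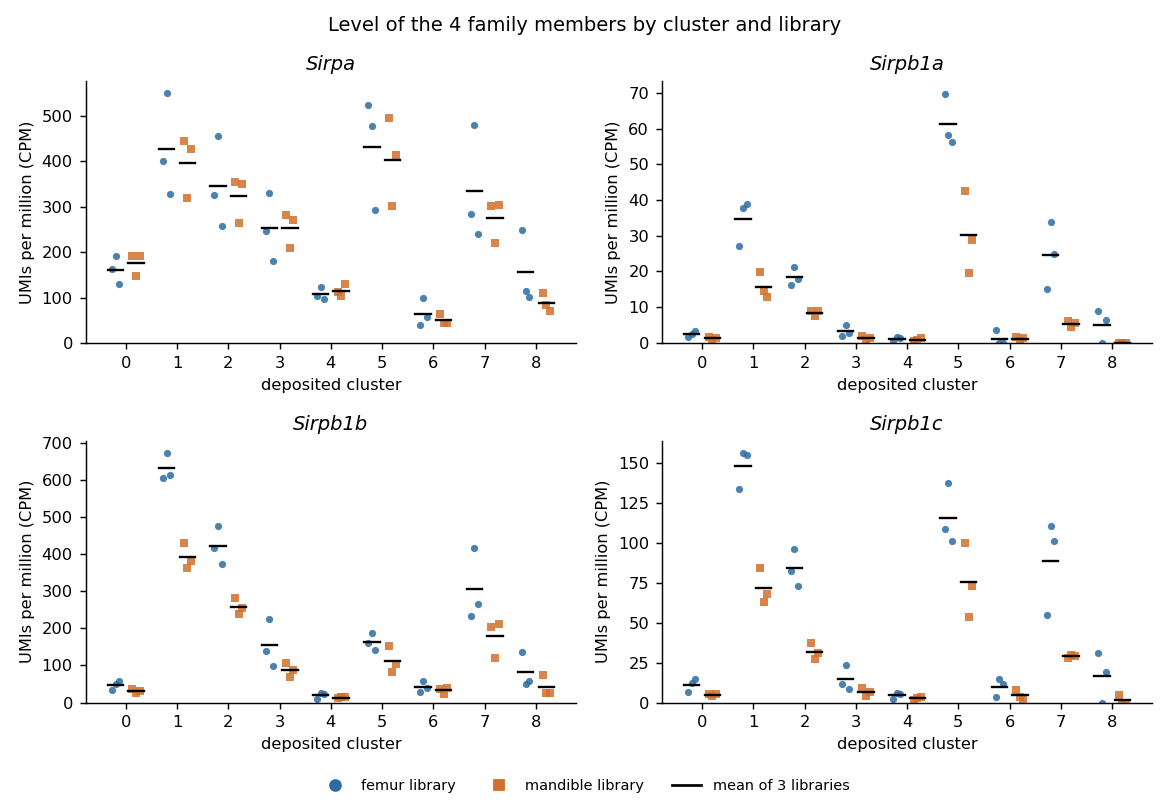
Level of each SIRP gene in each cluster and library, in CPM, with its own vertical scale for each gene, blue circles for femur and orange squares for mandible libraries, and a bar for the mean of the 3 libraries of a site. Sirpa lies between 38.8 and 551 CPM over all clusters, whereas Sirpb1a and Sirpb1c stand out in clusters 1, 2, 5 and 7 and Sirpb1b is highest in cluster 1.

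Taken in the order 4, 0, 3, 2 and 1, and leaving out cluster 7, the clusters of neutrophils gave a rising series for each gene. This order matches that of each gene's own means above, so the rise of the means is built in and is a description. Sirpa and Sirpb1b were higher at each of these 4 steps in 6 of 6 libraries. Sirpb1a was higher in 5, 4, 6 and 6 of 6 libraries at the successive steps, and Sirpb1c in 6, 4, 6 and 6. The steps differed in size. From cluster 3 to cluster 2, Sirpa was 1.32 times as high, Sirpb1b 2.82 times, Sirpb1c 5.48 times and Sirpb1a 5.90 times. From cluster 2 to cluster 1 the ratios lay closer, from 1.23 for Sirpa to 1.90 for Sirpb1c.

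Within cluster 5 the levels also varied with the deposited labels. In cells labelled macrophages, Sirpa was at 1162 CPM on average over the 6 libraries (range 945 to 1395), against 433 (348 to 510) in cells labelled monocytes and 365 (253 to 454) in those labelled neutrophils, and the macrophage values overlapped neither of the others. Sirpb1b was at 54.8 CPM (40.3 to 72.8) in macrophages, 141 (83.2 to 174) in monocytes and 163 (102 to 237) in neutrophils, so macrophages were lowest with no overlap. Sirpb1c was at 35.8 (14.4 to 66.2), 136 (76.6 to 179) and 76.6 (46.2 to 116), and its neutrophil values overlapped both others. Sirpb1a spanned 8.61 to 119 CPM in macrophages, 22.6 to 88.0 in monocytes and 21.0 to 48.0 in neutrophils, ranges that overlapped. In the B cells of cluster 6 the 4 genes were near the floor, with a mean of 9.99 CPM for Sirpa, 3.00 for Sirpb1b, 0.838 for Sirpb1a and 0.484 for Sirpb1c. The labels were assigned from expression, so these contrasts are descriptions as well.

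**Figure D2:**
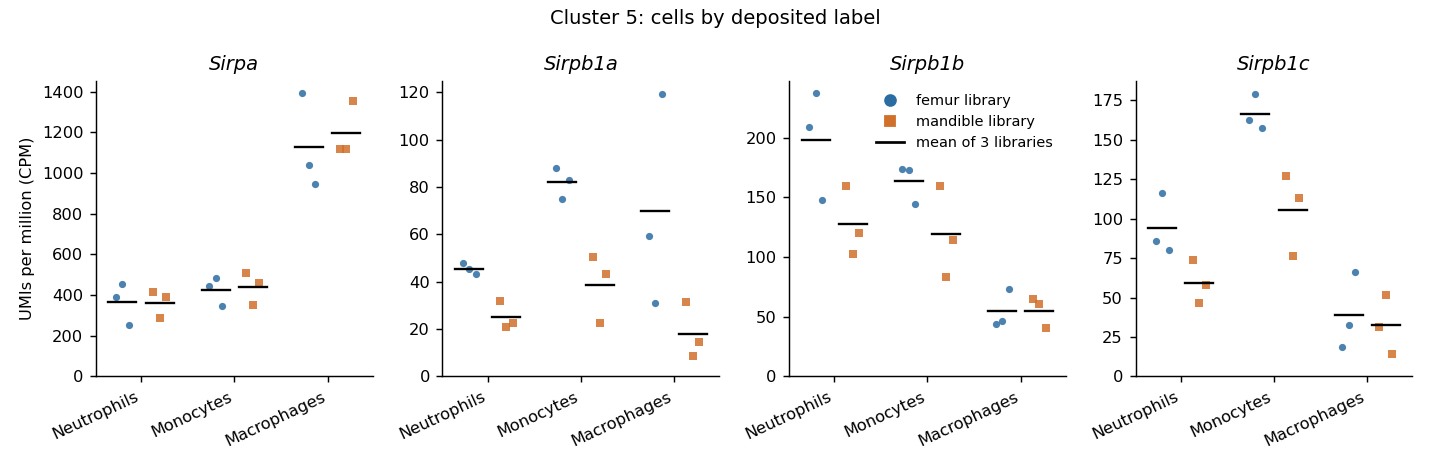
Level of each SIRP gene in cluster 5 by deposited cell label, in CPM, with a blue circle for each femur and an orange square for each mandible library and a bar for the mean of the 3 libraries of a site. Sirpa is highest in cells labelled macrophages, at 945 to 1395 CPM, while Sirpb1c is highest in cells labelled monocytes, at 76.6 to 179 CPM.

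The study asked how myeloid cells of the mandible differ from those of the femur. Sirpb1c, Sirpb1b and Sirpb1a all had lower means in mandible in each of the 9 clusters, whereas Sirpa overlapped between the sites in all 9. In clusters 6 and 8 the lower means of Sirpb1a and Sirpb1c rest on few UMIs, 5 and 12 for Sirpb1a and 38 and 42 for Sirpb1c. In cluster 2, the contrast on which the family was picked, Sirpb1c was at 82.3, 96.4 and 73.2 CPM in the femur libraries and at 37.4, 27.2 and 31.1 CPM in the mandible libraries. The means were 83.9 ± 11.7 and 31.9 ± 5.14 CPM (SD, n = 3 each), with no overlap and a log2 fold change, mandible over femur, of -1.35 ± 0.14 (SE from the edgeR fit). These values rest on 3343 femur and 768 mandible UMIs, with 730 to 1308 per femur and 172 to 363 per mandible library. The part of counting error in the spread between libraries was not tested.

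Sirpb1c was lower with no overlap in clusters 0, 1, 2, 5 and 7. In cluster 1 it was at 133, 156 and 155 CPM in femur and 84.5, 62.7 and 68.0 CPM in mandible. In cluster 5 the values were 109, 138 and 101 CPM against 99.8, 53.4 and 72.9 CPM, so mandible replicate 1 lay just under the lowest femur library. In cluster 7, a small cluster, they were 54.9, 110.3 and 101 against 27.9, 29.9 and 29.0 CPM. The log2 fold changes over the 7 clusters in which the gene passed the filter on low counts ran from -0.66 in cluster 5 to -1.56 in cluster 7.

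Sirpb1b was the most abundant of the copies. In cluster 1 it was at 606, 672 and 614 CPM in femur and at 430.3, 363 and 382 CPM in mandible, with means of 631 ± 36.4 and 392 ± 34.6 CPM (SD, n = 3 each). In cluster 2 it was at 416, 476 and 374 CPM in femur and at 282, 238 and 255 CPM in mandible. The sites did not overlap in clusters 1, 2 and 7, and overlapped in the other 6. The log2 fold change was -0.55 ± 0.13 in cluster 1 (edgeR adjusted p = 0.137), -0.66 ± 0.12 in cluster 2 (adjusted p = 0.0967) and -0.68 ± 0.26 in cluster 7 (adjusted p = 0.762), and over the 9 clusters, in all of which it was tested, it ran from -0.53 to -0.92. The value of -0.92 was in cluster 8, with an SE of 0.58 and only 3 to 16 UMIs per mandible library.

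Sirpb1a had few UMIs but the same direction. In cluster 5 it was at 69.8, 58.1 and 56.3 CPM in femur and at 42.6, 19.5 and 28.8 CPM in mandible. In cluster 2 it was at 16.3, 21.3 and 18.0 CPM in femur and at 8.86, 7.59 and 8.95 CPM in mandible. The sites did not overlap in clusters 1, 2, 3, 5 and 7. In cluster 3 this was close to a tie, with 2.04 CPM from 21 UMIs in femur replicate 1 and 1.92 CPM from 18 UMIs in mandible replicate 1. The log2 fold change of Sirpb1a was -1.06 ± 0.25 in cluster 5 (edgeR adjusted p = 0.594), -0.99 ± 0.21 in cluster 1 (0.109) and -1.09 ± 0.16 in cluster 2 (0.0606). In cluster 7 it had 13 to 59 UMIs in the femur libraries and 3 to 6 in the mandible libraries, a log2 fold change of -2.09 ± 0.44. There it passed the filter on low counts through the femur libraries alone, so a difference was built into its being tested and no p is given.

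Sirpa, the inhibitory member, overlapped between the sites in every cluster. In cluster 2 it was at 327, 455 and 257 CPM in femur and at 355, 264 and 349.6 CPM in mandible, so both sites spanned much the same range. Its log2 fold changes ran from -0.70 to 0.19, lower in 5 clusters and higher in 4, and the smallest adjusted p was 0.607. Its lowest values, -0.54 and -0.70, were in clusters 6 and 8, where Sirpb1b was at -0.53 and -0.92. A difference between Sirpa and the Sirpb1 genes in the change between sites was not tested. A p above the threshold does not show that the levels were alike.

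**Figure D3:**
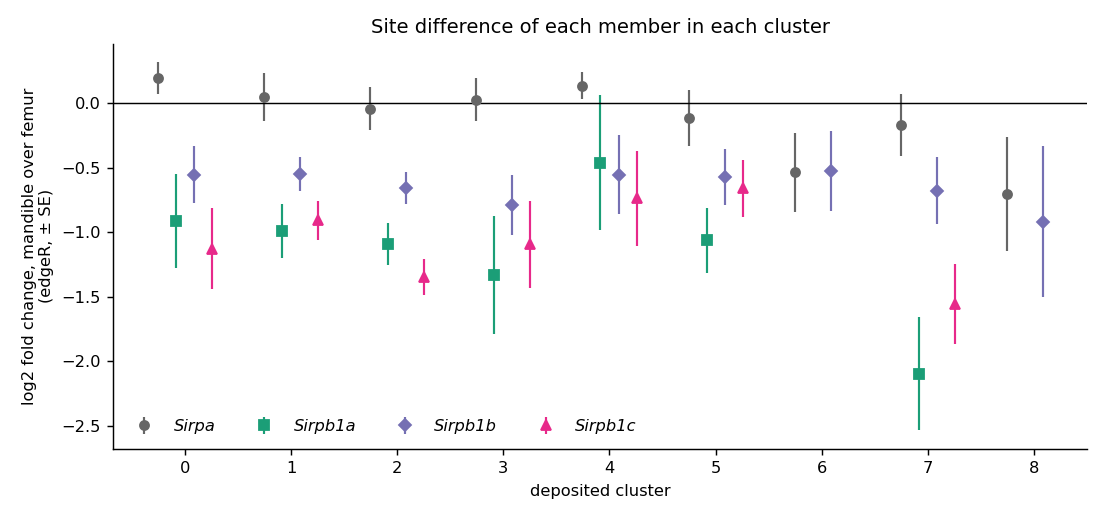
Log2 fold change of each SIRP gene, mandible over femur, in each cluster, on the log2 scale, with bars for the SE of the edgeR fit and no point where a gene was not tested. The values of Sirpa lie about 0 in clusters 0 to 5 and down to -0.70 in clusters 6 to 8, and all tested values of Sirpb1a, Sirpb1b and Sirpb1c lie below 0, down to -2.09.

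Of the 36 pairs of gene and cluster, 32 passed the filter on low counts, and Sirpb1a and Sirpb1c did not pass it in clusters 6 and 8. Leaving out Sirpb1c, edgeR called 0 of 25 pairs at a false discovery rate of 0.05, against 0% to 0.0842% of all genes per cluster, and 12 of 25 had an unadjusted p under 0.05, 6 of Sirpb1a and 6 of Sirpb1b. Of all pairs of gene and cluster tested, 8.42% had such a p, from 1.1% in cluster 8 to 13.6% in cluster 1. Without Sirpb1a in cluster 7, which passed the filter through femur alone, 11 of 24 had such a p, 5 of Sirpb1a and 6 of Sirpb1b. In clusters 3 and 4 only 2 of the 3 mandible libraries reached the count minimum for Sirpb1a. The pairs are not independent, since Sirpb1a and Sirpb1b are near copies of each other and of Sirpb1c, measured in the same libraries. Their count is therefore no separate support for the site difference. By cluster, the share of all genes called was 0.0163% in cluster 0, 0.0842% in cluster 1, 0.0416% in cluster 2, 0.0108% in cluster 3, 0.0245% in cluster 4, 0% in clusters 5, 6 and 8 and 0.0842% in cluster 7. DESeq2 called 5 of 27 pairs, all lower in mandible, which were Sirpb1a in clusters 1, 2 and 5 and Sirpb1b in clusters 1 and 2. In these 3 clusters DESeq2 called 1.18%, 0.908% and 0.225% of all genes lower in mandible, in the order 1, 2 and 5. Among all genes tested, 8.63%, 16.9%, 8.42%, 3.88%, 10.1%, 4.29%, 3.01%, 7.91% and 3.34% were lower in mandible with no overlap in clusters 0 to 8. The median log2 fold change of all genes was between -0.01 and 0.02 in every cluster.

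Other measures moved with site in the same clusters. Summed neutrophil markers (9 of 9 detected) were at 31358 to 38665 CPM in femur and 41002 to 47161 in mandible in cluster 2, and at 20710 to 24458 and 29451 to 36903 in cluster 1. The sum does not speak for each gene, since the paper reports Csf3r, a member of this list, as higher in femur cells of both clusters. Summed monocyte markers (5 of 5 detected) were at 531 to 673 and 752 to 857 CPM in cluster 2, and at 326 to 431 and 517 to 652 CPM in cluster 1. Summed bone and tooth markers (5 of 5 detected) were higher in mandible in all 9 clusters, for example 2.85 to 5.32 against 24.0 to 81.3 CPM in cluster 2. The dendritic cell sum was lower in mandible in clusters 0, 1 and 7, at 27.2 to 37.1 against 10.97 to 17.4 CPM in cluster 1, and in cluster 5 the erythroid and B cell sums were higher, at 141 to 550 against 580 to 1287 and at 10.2 to 13.9 against 20.4 to 72.5 CPM. The erythroid sum was higher in cluster 0 too, at 16.4 to 23.5 against 45.9 to 192 CPM. The median mitochondrial share of a cell's UMIs was 0.193% to 0.238% in femur and 0.292% to 0.359% in mandible in cluster 2, and 0.196% to 0.266% and 0.295% to 0.365% in cluster 1. It was also higher with no overlap in cluster 7, at 5.84% to 7.42% and 7.62% to 7.74%, and overlapped in the other 6 clusters. The part of these measures in the SIRP values was not tested. Median UMIs per cell overlapped between the sites in clusters 1 and 2, at 3827 to 6154 and 5088 to 7107. Without femur replicate 1, which leaves males only, the log2 fold change of Sirpb1c in cluster 2 was -1.37.

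The share of cells with at least 1 UMI is another view of the same counts, so it adds no separate support. Sirpb1c in cluster 2 is again the contrast that picked the family. After each cell was thinned to 1000 UMIs, 45.4% ± 2.32 of femur and 32.5% ± 2.51 of mandible cells of cluster 1 had a Sirpb1b UMI (SD, n = 3 each), and the unthinned shares were 87.6% and 76.7%. For Sirpb1c in cluster 2 the thinned shares were 8.79% ± 1.49 and 3.37% ± 0.51, and the unthinned shares 34.0% and 16.7%. For Sirpa the thinned shares were 34.8% and 32.4% in cluster 1. The background was read in the cells labelled B cells of cluster 6, on the assumption that they lack these receptors. That assumption was not tested, and the paper proposes that the cells of cluster 6 are pro-B cells that carry CD11b. Of these B cells, 5.34% in femur and 3.37% in mandible had a Sirpa UMI before thinning, and 0.542% and 0.292% after it. Their thinned shares were 0% in femur and 0.243% in mandible for Sirpb1b, and 0.271% and 0% for Sirpb1c, and the unthinned shares were 0.542% and 1.27%, and 0.542% and 0%. Their median UMIs per cell were 2841 to 5097 over the libraries. The thinned 0% is 0 of 202 femur cells for Sirpb1b and 0 of 655 mandible cells for Sirpb1c, which allow shares of cells with a UMI of up to 1.49% and 0.458%, from counting error alone. Thinning left out 10 femur and 2 mandible cells of cluster 1, 0 of cluster 2, and 0 and 1 of these B cells.

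The share of Sirpb1c in the SIRPβ1 signal also differed between the sites in clusters 0 to 3, and the shares of the other copies differed in clusters 5 and 7 as well. Molecules of these libraries are counted once whatever the transcript's length, so shares of UMIs are used here, within the limit set by the shared windows. In cluster 2, Sirpb1c gave 15.7% to 16.2% of the UMIs of the 3 Sirpb1 genes in femur and 9.98% to 11.4% in mandible, and Sirpb1b gave 80.2% to 80.8% and 85.9% to 87.2%. In cluster 1 the share of Sirpb1c was 17.4% to 19.2% and 14.2% to 15.8%. Clusters 0 and 3 also had a lower share of Sirpb1c in each mandible library than in any femur library. In clusters 4 to 8 its share overlapped between the sites, at 17.86% to 18.3% and 12.8% to 17.89% in cluster 4, for example. In cluster 5 Sirpb1c gave 32.0% to 36.0% in femur and 33.9% to 35.2% in mandible, and Sirpb1a was lower in mandible, at 15.2% to 20.6% and 12.6% to 14.5%. Sirpb1b was higher there, at 47.5% to 48.8% and 50.8% to 53.0%. In cluster 7 Sirpb1a was lower in mandible, at 5.0% to 6.33% and 2.23% to 2.91%, and Sirpb1b higher, at 67.9% to 76.9% and 77.7% to 86.0%. These shares come from the contrast that picked the family and carry no test.

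**Figure D4:**
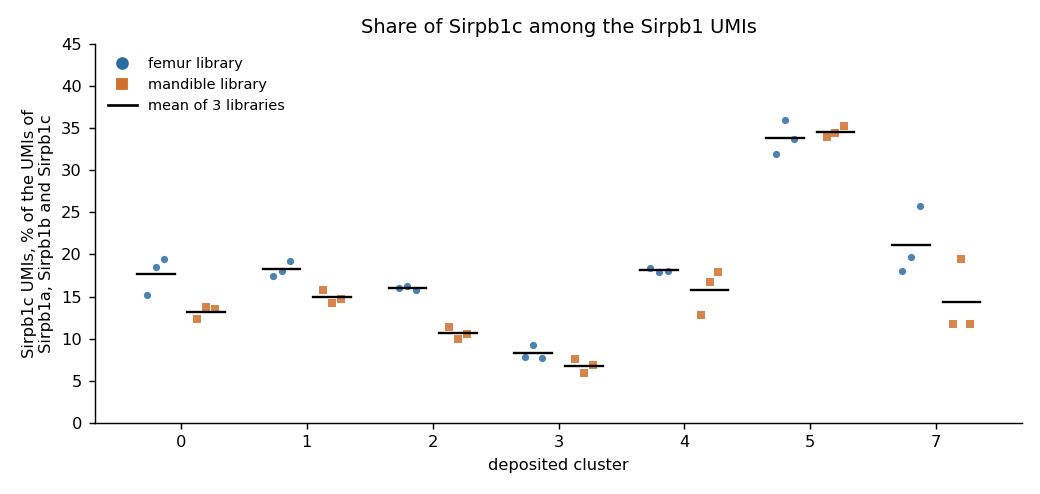
Share of Sirpb1c among the UMIs of the 3 Sirpb1 genes, in percent, in clusters 0 to 5 and 7, with a blue circle for each femur and an orange square for each mandible library and a bar for the mean of the 3 libraries of a site. In cluster 2 the femur libraries lie at 15.7% to 16.2% and the mandible libraries at 9.98% to 11.4%, while in clusters 4, 5 and 7 the shares overlap.

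The Sirpb1 genes were also set against Sirpa in the same cells. This ratio holds Sirpb1c and comes from the contrast that picked the family, so it is a description with no test. In cluster 2 the 3 Sirpb1 genes together had 1.57, 1.305 and 1.81 UMIs per Sirpa UMI in the femur libraries and 0.924, 1.03 and 0.845 in the mandible libraries. In cluster 1 the ratios were 1.91, 1.57 and 2.46 against 1.203, 1.38 and 1.08, and in cluster 5 they were 0.649, 0.800 and 1.02 against 0.594, 0.514 and 0.501. In these 3 clusters each mandible library lay below each femur library, while the sites overlapped in clusters 4, 6 and 8. Because both terms come from the same library, this ratio does not depend on the scaling to total UMIs.

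A contrast that played no part in the choice of the family was that between cells called S or G2M and cells called G1 by the deposited phase calls, which score genes of the cell cycle. In cluster 5 the CPM of all 4 SIRP genes was lower in the cells called S or G2M, in 6 of 6 libraries. CPM is a share of all UMIs, and in 5 libraries the S and G2M cells held more UMIs in the median, as given below. A lower CPM is therefore not the same as fewer molecules per cell, which were not tested. In all, 6080 G1 cells held 30799 Sirpa and 7930 Sirpb1c UMIs, and 1274 S and G2M cells held 5055 and 569. In femur replicate 3, 1212 G1 cells held 4910 Sirpa UMIs and 231 S and G2M cells held 995. Sirpa UMIs per cell were thus not lower there. In femur replicate 2 they were lower, with 7245 in 1288 G1 cells and 574 in 140 S and G2M cells. Sirpb1c was at 121, 156 and 121 CPM in G1 cells of the femur libraries and at 113, 83.4 and 95.3 CPM in those of the mandible libraries. In S and G2M cells it was at 21.9, 31.9 and 41.6 CPM in femur and at 25.4, 15.8 and 21.2 CPM in mandible. The 2 sets of 6 values did not overlap.

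Sirpb1b was at 178, 209 and 166 CPM (femur) and 172, 120.4 and 136 CPM (mandible) in G1 cells, and at 46.1, 58.9, 74.0, 35.7, 34.4 and 34.8 CPM in S and G2M cells of the same libraries in the same order. Sirpb1a was at 77.5, 66.4, 67.8, 49.1, 31.4 and 37.5 CPM in G1 cells, and at 18.3, 11.05, 22.1, 5.44, 4.52 and 8.86 CPM in S and G2M cells. Sirpa was at 562, 520.4, 326, 535, 369 and 481 CPM and at 261, 235, 196, 268, 217 and 257 CPM. For every gene the lowest G1 library lay above the highest S and G2M library. How many of all genes were separated in this way was not counted. Differences were common here, since 8058 of 13622 genes tested had an unadjusted edgeR p under 0.05.

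With the library as a block, the log2 fold change of S and G2M over G1 cells was -2.21 ± 0.17 for Sirpb1a (edgeR adjusted p = 7.71e-07), -2.09 ± 0.12 for Sirpb1c (7.99e-08), -1.76 ± 0.13 for Sirpb1b (5.00e-07) and -0.91 ± 0.08 for Sirpa (1.78e-06). All 4 were called lower, against 27.1% of all genes called lower and 27.2% called higher in this cluster, so a call by itself was common. The drop in relative level of each SIRPβ1 gene was larger than that of Sirpa. Taken per library as log2(CPM + 1), the log2 ratio of Sirpb1a was below that of Sirpa by 1.32 ± 0.47 (SD, n = 6), that of Sirpb1b by 0.87 ± 0.29 and that of Sirpb1c by 1.18 ± 0.26, in 6 of 6 libraries each. The 2-sided exact sign-flip permutation test gave p = 0.03125 for each, the smallest that 6 libraries allow, and 0.03125 after adjustment over the 3 comparisons.

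By site, the per-library log2 ratio averaged -2.06 ± 0.48 in femur and -2.18 ± 0.12 in mandible for Sirpb1c (SD, n = 3 each) and -0.99 ± 0.23 and -0.89 ± 0.12 for Sirpa. It averaged -2.03 ± 0.45 and -2.49 ± 0.50 for Sirpb1a, and -1.63 ± 0.42 and -1.98 ± 0.23 for Sirpb1b. The values of the sites overlapped for each gene, and a difference between sites was not tested. The calls compare 6080 G1 cells with 1274 S and G2M cells, the latter 94 to 414 per library. Median UMIs per cell were 7804 to 10273 in G1 cells of the 6 libraries. In S and G2M cells they were higher than in G1 in 5 libraries, at 14503 to 21679, while femur replicate 1 stood apart with 2087 against 9511 in its G1 cells. Without that library the log2 fold changes were -0.88 for Sirpa, -2.22 for Sirpb1a, -1.73 for Sirpb1b and -2.05 for Sirpb1c, all still called. The share labelled macrophages was 4.04% to 15.1% in G1 and 0.866% to 19.2% in S and G2M cells. It was lower in S and G2M cells in 3 of 3 mandible and 2 of 3 femur libraries, and higher in femur replicate 1. The share labelled monocytes was lower in S and G2M cells in 3 of 3 femur libraries, at 21.8% to 36.4% against 43.7% to 56.1%, and higher in 3 of 3 mandible libraries, at 51.5% to 67.0% against 49.6% to 63.8%. The share labelled neutrophils went the other way, at 41.4% to 55.8% against 27.6% to 48.5% in femur and 21.3% to 29.3% against 24.5% to 34.8% in mandible. The part of these shares in the phase values was not tested beyond the monocytes alone. In the cells labelled monocytes alone, a split added after the data were seen, the log2 fold changes were -0.84 for Sirpa (edgeR adjusted p = 3.56e-09), -3.47 for Sirpb1a (1.67e-12), -2.29 for Sirpb1b (9.74e-14) and -2.71 for Sirpb1c (2.50e-13).

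**Figure D5:**
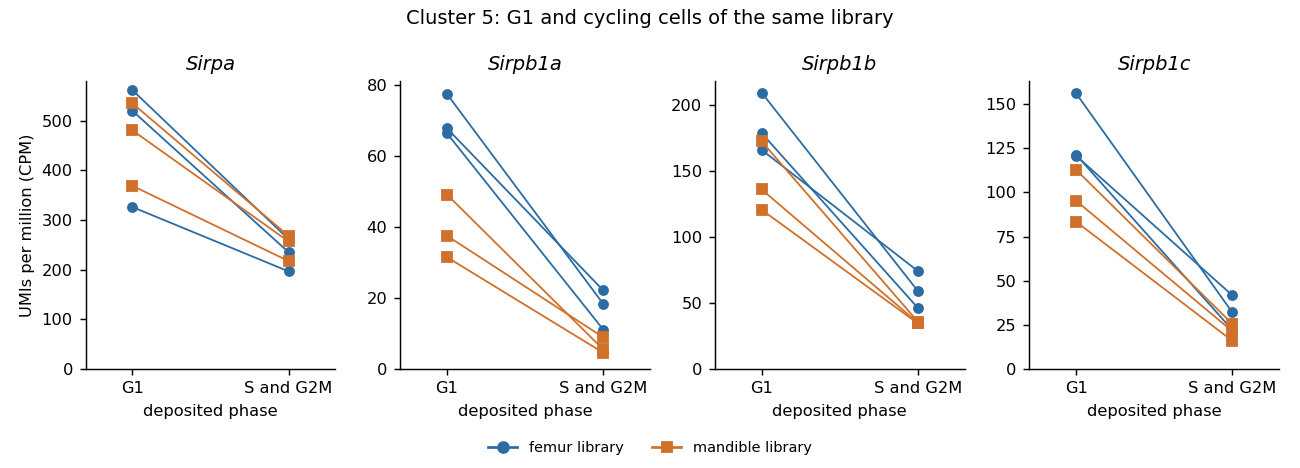
Level of each SIRP gene in cells of cluster 5 called G1 and in cells called S or G2M, in CPM, with its own vertical scale for each gene and a line for each of the 6 libraries, blue for femur and orange for mandible. All lines go down, for Sirpb1c from 83.4 to 156 CPM in G1 cells to 15.8 to 41.6 CPM in S and G2M cells.

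In neutrophil clusters the same contrast gave smaller values. In cluster 0, Sirpa was called lower (log2 fold change -0.34 ± 0.08, edgeR adjusted p = 0.00148), but its CPM was higher in S and G2M cells in 3 of 6 libraries, and with scaling to total UMIs the value was -0.14 (adjusted p = 0.219). That scaling moved the median of all genes in this contrast from 0.02 to 0.23. Sirpb1c was called higher, by 0.50 ± 0.20 (adjusted p = 0.0462), in 4 of 6 libraries. That call was lost without femur replicate 1 (adjusted p = 0.164), femur replicate 3 (0.124), mandible replicate 2 (0.270) or mandible replicate 3 (0.108), and also with DESeq2 (0.142) and without the library block (0.236). Sirpb1a (0.26 ± 0.38) and Sirpb1b (0.18 ± 0.19) were not called. In this cluster 20.8% of all genes were called higher and 21.8% lower, and mandible replicate 1 had only 52 S and G2M cells. Femur replicate 1 stood apart here too, with a median of 1790 UMIs in its S and G2M cells against 13600 in its G1 cells, while the other 5 libraries had 11481 to 14259 and 8491 to 11775. Without it the value of Sirpa was -0.40 (edgeR adjusted p = 0.00384). In cluster 4 none of the 4 genes was called by edgeR at an adjusted or unadjusted p under 0.05, nor by DESeq2, against 8.92% of all genes called higher and 3.42% called lower, and G1 cells numbered 6 to 28 per library.

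The rest of the pathway was read from lists of 53 other genes, of which 52 were tested in at least 1 cluster. Between sites, edgeR called 0 of 421 pairs of gene and cluster, with 39 (9.26%) at an unadjusted p under 0.05, beside the 8.42% of all pairs, and 55 (13.1%) were lower and 6 (1.43%) higher in mandible with no overlap, against 7.89% and 5.02% of all pairs. Among all genes, 2.47%, 4.88%, 6.48%, 3.84%, 5.9%, 7.32%, 6.22%, 2.83% and 1.26% were higher with no overlap in clusters 0 to 8. Cd47, the ligand of SIRPα, was at 221, 208 and 203 CPM in femur and at 232, 261 and 240.3 CPM in mandible in cluster 2 (a log2 difference of 0.26 ± 0.14, with an adjusted p of 0.522 by edgeR), and overlapped in the other 8 clusters. Tyrobp, the adaptor of SIRPβ1, was at 2706 to 3805 and 2785 to 3017 CPM in cluster 2 and overlapped in all clusters, as did the phosphatase genes Ptpn6 and Ptpn11. The median log2 fold change of the pathway genes was -0.11 in cluster 2, -0.21 in cluster 5, -0.29 in cluster 6 and -0.32 in cluster 8, and -0.08 to 0.00 in the other 5 clusters, beside -0.01 to 0.02 for all genes.

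The neighbour Gm5150 went with the SIRPβ1 genes. It was at 339, 432 and 336 CPM in femur and at 256, 171 and 188 CPM in mandible in cluster 2, a log2 difference of -0.80 ± 0.16, for which edgeR gave an adjusted p of 0.131. Its values were -0.61 to -0.87 in the 8 clusters in which it was tested, with no overlap in clusters 1, 2, 5 and 7. Gm9733, at the other end of the locus, overlapped between sites in each of the 7 clusters in which it was tested, with log2 fold changes of 0.02 to -0.39. Neither gene shared a window of 91 bases with the Sirpb1 genes.

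In the phase contrast of cluster 5, most of the list genes fell in relative level together with the SIRP genes. The genes named here besides Cd47, Tyrobp, Ptpn6, Ptpn11 and the neighbours were chosen after their values were seen. The counts stand beside 27.1% of all genes called lower and 27.2% called higher in this cluster. Among the adaptor and kinases 7 of 10 fell and none rose, led by Fgr (-1.05), a Src family kinase, with Tyrobp at -0.53 (edgeR adjusted p = 9.75e-06). In the inhibitory arm of SIRPα 5 of 6 fell, led by the adaptor gene Fyb (-1.29), with Ptpn6 at -0.30 (adjusted p = 0.00695), while Ptpn11 was at 0.00 (0.968). Among other paired receptors, 11 of 13 listed as activating fell and 1 rose, the C-type lectin Clec5a (0.54). Of those listed as inhibitory, 11 of 13 fell, led by Cd300a (-1.26). Cd47 fell by 0.21 on the log2 scale (adjusted p = 0.0174), and 2 of 4 genes of its list fell, the other being Thbs1, another ligand of CD47. Of the 4 prey recognition genes 3 fell, among them the scavenger receptor gene Lrp1 (-1.56) but not Calr (-0.09). Gm5150 and Gm9733 fell by 1.75 and 1.58. The values of Sirpb1a and Sirpb1c, -2.21 and -2.09, lay below those of all these genes, the nearest of which was Cd300c2 at -1.93.

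Across the 54 sums of library and cluster, the genes most like each member were found by Pearson's r of log2(CPM + 1), among 7186 genes with a mean of at least 10 CPM. The sums share libraries and clusters, so r is a description. Sirpa was closest to Cask (r = 0.952), Fyb (0.938), Fgr (0.934), Myo1f (0.934) and Itgal (0.934). Sirpb1b was closest to Pla2g7 (0.972), Gm5150 (0.971), Cd300ld (0.968), Snap23 (0.966) and Ccl6 (0.966). Sirpb1a and Sirpb1c were close to each other (0.929), and both lists held Slfn5 (0.904 and 0.933) and Nlrp1b (0.888 and 0.918). Sirpb1a also had Metrnl (0.921) and Mpeg1 (0.911), and Sirpb1c had Lfng (0.937) and Fgl2 (0.910). Sirpa had r of 0.788 to 0.804 with the Sirpb1 genes. Sirpb1b had 0.858 with Sirpb1c and 0.782 with Sirpb1a.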

How the data were processed

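Transcripts of single cells were captured by their 3′ ends (10x Genomics). The count matrices deposited by the authors hold whole UMI counts per gene and barcode, made per library with Cell Ranger on mm10. The submitters' processing notes give version 7.0.1 and the matrix header 7.1.0. Whether counting used strand is not stated. The deposited metadata give, per kept cell, the UMI count, the mitochondrial share in percent, the cluster, the phase call and a reference label. Per the methods, the authors filtered cells on the number of genes and the mitochondrial share, normalized each library with SCTransform, regressed out the mitochondrial share and the difference of the phase scores, and integrated the 6 captures before clustering, so clusters depend on those steps while the counts do not. A deposited marker table holds log2 fold changes and p-values of the authors' own comparisons and was not used. No doublet removal is stated, and none was run.

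UMIs of kept cells were summed per library and cluster and tested by quasi-likelihood in edgeR 4.0.16 (R 4.3.3, limma 3.58.1), using TMM scaling, genes kept by filterByExpr, Benjamini-Hochberg adjustment over all genes of a cluster and a false discovery rate of 0.05. The fit between phases was made in clusters 0, 4 and 5 with the library as a block. SE were taken from the fold change and the F statistic. Alternatives were DESeq2 1.42.0, no filter, each library left out, blocks by replicate or library number, and leaving out the 5% of cells with the most UMIs. Scaling to total UMIs and the split by monocyte label were added after the data were seen. Shares of cells with a UMI were thinned to 1000 UMIs per cell, or to 2000. The scripts were tested on simulated data.

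The SIRP genes and the lists were chosen with earlier results of these data known. Named were the 4 members in every cluster, Cd47, Tyrobp, Ptpn6 and Ptpn11, any list gene called between sites, and the 5 genes most like each member. Other list genes named between phases were chosen after their values were seen, and Gm5150 and Gm9733 as neighbours in the locus. Coding sequences came from GENCODE vM21 and promoters from RefSeq (GRCm38.p6), whose tables matched Sirpb1a, Sirpb1b, Sirpb1c and Gm5150. Sirpa and Gm9733 are named only. Total UMIs of 82962160 to 244946998 per library set the counting error of the sums, which was not tested against the spread between libraries.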

Additional observations from a re-analysis of the deposited data

Results flagged for a closer look

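Cluster 5, where monocytes were the largest label, was compared with cluster 0, of neutrophils, in the change from G1 to S or G2M cells. The change differed for Sirpa, while the values of the other genes have the limits given below. Per library, the log2 ratio of S and G2M over G1 levels, with 1 CPM added to each, in cluster 5 minus that in cluster 0 was -0.77 ± 0.27 for Sirpa, -2.32 ± 0.98 for Sirpb1a and -2.55 ± 1.07 for Sirpb1c (SD, n = 6 libraries), and it was below 0 in 6 of 6 libraries for each. A 2-sided exact sign-flip permutation test gave p = 0.03125 for each of these, the smallest p that 6 libraries allow, and 0.0417 after adjustment over 4 genes. For Sirpb1b the difference was -1.77 ± 1.298, below 0 in 5 of 6 libraries (exact p = 0.0625), which missed the threshold. Mandible replicate 1, which had 52 S and G2M cells in cluster 0, was the library above 0 for Sirpb1b. S and G2M cells of cluster 0 held 0 to 24 UMIs of Sirpb1a and 1 to 140 UMIs of Sirpb1c per library, so the counting error of these differences is large and the ratios of Sirpb1a in that cluster lie near the added 1 CPM. Sirpb1a averaged 1.83 CPM in G1 cells of cluster 0, where the added 1 CPM shrinks a ratio. An equal fall in both clusters would thus still give a difference below 0, so the p of Sirpb1a does not show that the changes differed. The same limit holds, to a lesser degree, for Sirpb1c, which averaged 7.71 CPM in G1 cells of cluster 0. Its value in mandible replicate 1 also rests on 1 UMI in S and G2M cells of cluster 0. The p of Sirpb1c therefore does not show by itself that the changes differed. In cluster 0 the genes did not all move one way, and the size of each difference comes mostly from the drop in cluster 5.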

How the results depend on the processing

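Of the site results, the log2 fold change of Sirpb1c in cluster 2 stayed between -1.29 and -1.47 in all 12 alternatives. The number of called pairs among the other members, 0 of 25, was 5 of 27 with DESeq2 (0.642% of all genes called), 6 with no filter (Sirpb1a in clusters 1, 2 and 7, Sirpb1b in clusters 1, 2 and 3; 1.06% of all genes), 1 with total UMIs (Sirpb1a in cluster 2; 0.0828%) and 0 to 1 with a library left out, the 1 being Sirpb1a in cluster 7 without femur replicate 1 (0.0217% of all genes), a gene that passed the filter there through the femur libraries alone. No call was made of Sirpa in any alternative. The total UMI scaling moved the median of all genes to -0.13 in cluster 1 and -0.11 in cluster 7. The direction of Sirpa, whose values lay near 0, turned in cluster 1 with total UMIs (-0.10) and no filter (-0.0072), and its values with a library left out spanned 0 in clusters 1 (-0.10 to 0.21), 2 (-0.17 to 0.13), 3 (-0.083 to 0.20), 5 (-0.28 to 0.045) and 7 (-0.31 to 0.14). The cause was not tested.

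The replicate block by the numbers in the titles gave 0 called pairs, and by the correlation of deviations the numbers do not pair the samples, at -0.045 to 0.16, -0.40 to -0.042 and -0.059 to 0.18 in clusters 0 to 7 and 0.62, 0.33 and -0.19 in cluster 8. The numbers in the library names are shared by 2 pairs, femur replicate 2 with mandible replicate 1 and femur replicate 3 with mandible replicate 2, with correlations above 0 in clusters 0 to 7, at 0.0032 to 0.50 and 0.13 to 0.38, and of -0.64 and -0.16 in cluster 8, the smallest. The labels do not say what they mark, and there are only 2 such pairs. A replicate block by that number in these 4 libraries gave 10 called pairs (Sirpb1a in clusters 1, 2, 3 and 7, Sirpb1b in clusters 0, 1, 2, 3, 4 and 7), against 5.25% of all genes called, and -0.0040 and -0.019 for Sirpa in clusters 1 and 3. Within those pairs Sirpb1c in cluster 2 had log2 ratios of -1.37 and -1.43.

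Between phases 5 or 6 of 12 pairs were called in each alternative fitted in all 3 clusters (5 of 11 without the library block), and the 4 calls of cluster 5 held in each, as in the monocytes alone, fitted only there. The share of all genes called between phases was taken in the main fit only, at 27.1% lower and 27.2% higher in cluster 5. The counts of the alternatives therefore have no such share beside them. Uncalled values turned with DESeq2 for Sirpb1a in cluster 4 (-0.43) and Sirpb1b in clusters 0 (-0.069) and 4 (-0.16). With a library left out they spanned 0 for Sirpb1a in clusters 0 (-0.12 to 0.46) and 4 (-0.52 to 1.38) and for Sirpb1b in cluster 4 (-0.32 to 0.31). Depth limits clusters 4 (few G1 cells), 6 and 8.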
